A study of Homo sapiens with 6 samples.

Results

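The genes described here encode HSP90, its best known helper proteins and HSF1, the transcription factor that drives chaperone genes under heat shock. They were taken by symbol from the list HSP90AA1, HSP90AB1, TRAP1, FKBP4, FKBP5, AHSA1, STIP1, PTGES3, CDC37 and HSF1, and all 10 were found among the 26364 genes of the table. The cells were MV4-11, an established human acute myeloid leukaemia line that carries an internal tandem duplication of the receptor tyrosine kinase FLT3, which all groups share. RNA came from 3 libraries of cells in medium with the vehicle DMSO and from 3 libraries of cells in medium with 22d, known as an inhibitor of the deacetylase HDAC8, at 10 nM, each after 18 hours. The labels do not say whether the libraries of a group came from separate cultures, so p-values reflect the spread among these libraries, which may be technical. MV4-11 is 1 line, and bulk RNA from it cannot tell fewer cells of a kind from less RNA per cell.

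HSP90 is an ATP-driven chaperone that works as a dimer and helps kinases, steroid hormone receptors and other client proteins reach and keep their active fold. Cochaperones join it in turn: some deliver clients, some speed or slow its ATPase, and some hold the closed, client-bound form. In myeloid leukaemia the pathway is known because mutant FLT3 is itself a client of HSP90.

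With 22d, 8 of the 10 genes fell, none rose, and FKBP5 and HSF1 did not pass the test. A gene is called here when its Benjamini-Hochberg adjusted p, from limma-trend on log2(normalized count + 1) over all 13297 genes with a mean of at least 10, is under 0.05. By the same rule 58.0% of all tested genes were called, 28.5% higher and 29.6% lower. Of the 10 genes, 5 fell at least 2-fold, against 9.87% of the tested genes. The groups did not overlap, with every 22d library below every DMSO library, for the same 8 genes that were called, and this held for 33.3% of all tested genes. The median log2 fold change of the 10 genes was -0.92, and that of all tested genes was 0.0055. The genes together took 0.440, 0.381 and 0.409% of the reads in DMSO replicates 1 to 3 and 0.264, 0.278 and 0.252% in 22d replicates 1 to 3.

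**Figure D1:**
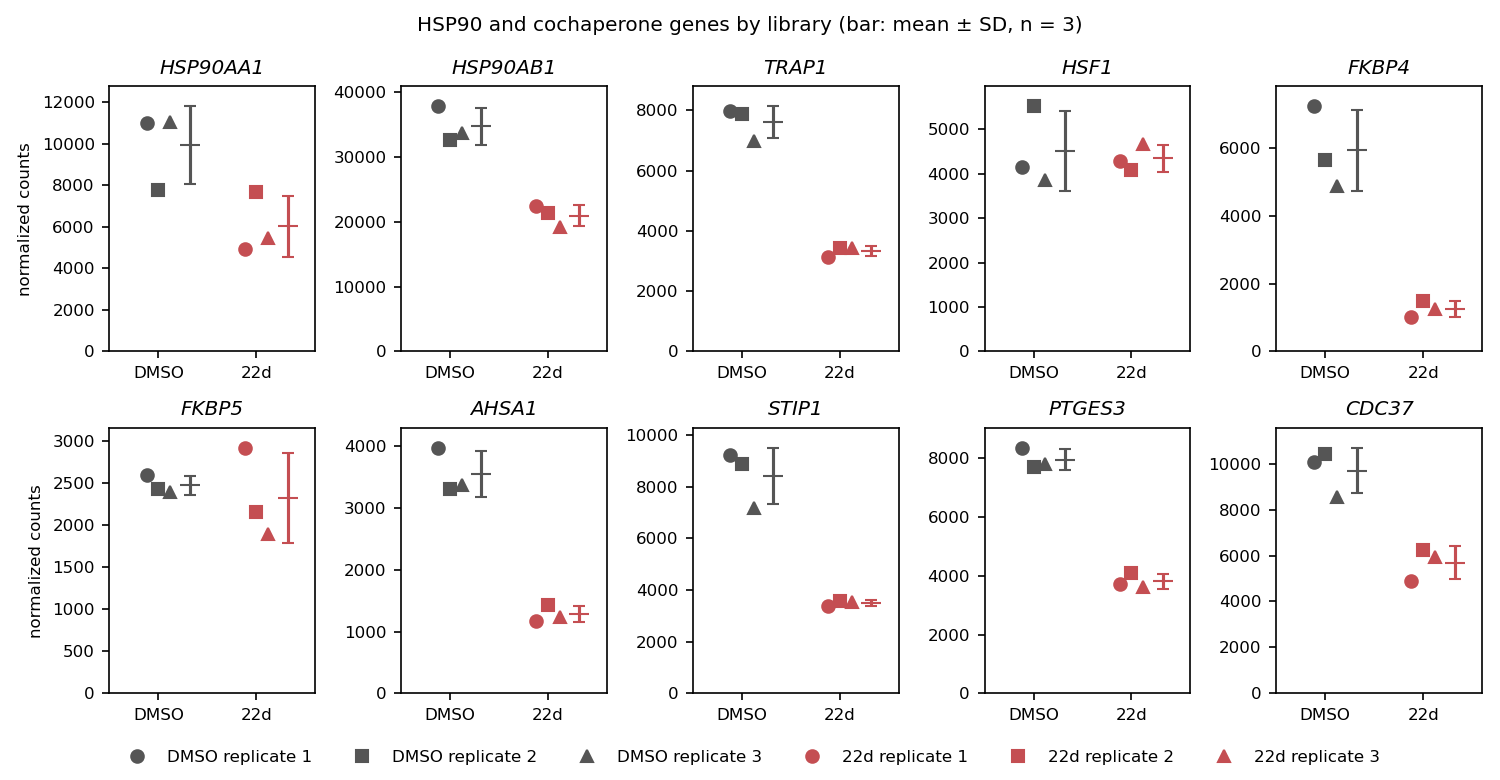
Normalized counts of the 10 genes (vertical axes, each from 0) in the 3 DMSO libraries (grey) and the 3 libraries with 22d (red), with the marker shape giving the replicate number and bars the mean ± SD. The 22d libraries lie below all DMSO libraries in 8 panels, and the groups overlap for FKBP5 and HSF1.

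The libraries held between 19995430 and 23749257 reads in genes, and 1 read was worth 0.839 to 1.14 normalized counts. Reads were found in 16268 to 17055 genes in 5 libraries and in 19285 genes in 22d replicate 3. Without that library the same number of HSP90 genes, 8, was called lower. All 12 markers of myeloid leukaemia cells had reads, 11 of them with a mean of at least 10. Their summed level was 65564 to 83325 normalized counts with DMSO and 40578 to 51397 with 22d. FLT3 and CSF1R, which are among them, were higher with 22d, so the sum does not describe each marker. Of other cell types, T cell markers summed to at most 2.52 with CD3D and CD2 at 0 and B cell markers to at most 197 with MS4A1 at 0. Fibroblast markers summed to 1.03 to 2.28 with DMSO and 2.93 to 16.8 with 22d, with COL1A2 at 0. Epithelial markers, none at 0, summed to 296 to 357 with DMSO and 416 to 535 with 22d. The part of these marker levels in the results was not tested.

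Promoter sequences are shown for the genes whose window holds a motif named after stress or cyclic AMP signalling, to show which of them share such a motif, a feature that played no part in choosing them. RefSeq sequence on GRCh38.p14, from 250 bases before to 50 after each annotated start, was matched for 8 of the 10 genes, in 14 windows; FKBP4 and HSF1 had no entry. The heat shock element, which HSF1 binds, was searched on both strands as 3 alternating units, GAA, TTC and GAA or the reverse, each 2 bases apart. Each match holds the shorter forms GAANNTTC and TTCNNGAA, which were also searched. The form with 3 units was present in 0.490% of all 35116 windows and in 2 of the 14 windows of these genes, 1 of HSP90AA1 and 1 of HSP90AB1. HSP90AA1 has 1 match, in chr14:102087104-102087133 on the minus strand, whose first base lies at -88 from a RefSeq start. HSP90AB1 has 2, at -165 and -112 from its start at 44247943, in chr6:44247693-44247865 on the plus strand. The HSP90AB1 windows at the starts 44246194 and 44247101 have no match, nor has the HSP90AA1 window at 102139749. The matches of both genes thus lie inside the annotated gene and not at its outermost start. STIP1 has only the form TTCNNGAA, at 14 bases after a start, in chr11:64186173-64186202 on the plus strand; that form was present in 7.74% of windows. Capitals mark the matched bases, including in HSP90AA1 a further TTCNNGAA match.
HSP90AA1: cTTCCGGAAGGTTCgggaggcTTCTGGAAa
HSP90AB1: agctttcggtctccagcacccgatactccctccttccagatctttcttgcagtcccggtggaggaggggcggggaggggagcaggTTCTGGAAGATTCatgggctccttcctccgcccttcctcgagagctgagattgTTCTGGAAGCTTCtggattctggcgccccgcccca
STIP1: cttctagtaggTTCCAGAAggcggcgcgtg

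The cyclic AMP response element TGACGTCA reads the same on both strands and shares no bases with the heat shock matches. By window it was present in 3 of the 14, against 1.85% of all windows. It was present in 2.25% of the 27305 genes with a window and in 3 of the 8 matched genes, HSP90AB1, TRAP1 and CDC37. It lies at -131, -94 and -66 from a start of these genes, in chr6:44246959-44246988 (plus strand), chr16:3717600-3717629 (minus) and chr19:10403590-10403619 (minus). Capitals mark the element.
HSP90AB1: ttttcggaccaTGACGTCAaggtgggctgg
TRAP1: ggcgcccgccgTGACGTCAccgccccgcgc
CDC37: tactagggatgTGACGTCAcacagggcggg

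Of the other motifs searched on both strands, the GC box GGGCGG was present in all 8 matched genes and in 48.3% of all genes with a window. By window it was in 11 of the 14, against 45.0% of all windows. The 14 windows held 53.0 to 76.3% G and C, against a mean of 57.5% over all windows. The CCAAT box CCAAT was present in FKBP5, HSP90AA1 and STIP1, which has 4 matches in 1 window, and in 39.7% of all genes with a window. The E-box CACGTG was present in FKBP5 alone among the matched genes and in 8.77% of all genes with a window. These are letter matches only, and a window without a match says only that these letters are not in it.

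Both cytosolic HSP90 genes fell, HSP90AB1 to 60.4% and HSP90AA1 to 60.6% of the DMSO mean. HSP90AB1, the constitutive form, lies on chromosome 6 from 44246166 to 44253888 (GRCh38, GENCODE 29, plus strand) and holds the heat shock and cyclic AMP elements printed above. It had 37942, 32606 and 33678 normalized counts in DMSO replicates 1 to 3 and 22387, 21324 and 19205 in 22d replicates 1 to 3. All libraries with 22d were far below all DMSO libraries. The mean went from 34742 ± 2823 to 20972 ± 1620 (SD, n = 3 each). The log2 fold change was -0.73, with an SE of 0.11 and a limma adjusted p of 9.7e-05. HSP90AB4P, a copy of this gene in the table, had at most 3 reads in a library.

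HSP90AA1, the stress-inducible form (chromosome 14, 102080738 to 102139699, minus strand), stood at 11002, 7749 and 11059 normalized counts in DMSO replicates 1 to 3, and at 4913, 7668 and 5468 in 22d replicates 1 to 3. The groups only just failed to overlap, since DMSO replicate 2 and 22d replicate 2 stood side by side. The mean went from 9936 ± 1895 to 6016 ± 1457 (SD, n = 3 each). This gave a log2 fold change of -0.73, with an SE of 0.17 and a limma adjusted p of 0.0024. Quantile normalization of the log2 values, under which 27.4% of tested genes were lower, ended this call (log2 fold change -0.42, limma adjusted p = 0.079). It also brought HSP90AB1 to -0.44, still called. WDR20, on the opposite strand, overlaps an HSP90AA1 exon and averaged 473 normalized counts with DMSO and 537 with 22d; the strand setting of the counting was not given in the sources used here.

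The ratio of the inducible to the constitutive gene within a library does not depend on scaling between libraries. Its log2 was -1.79, -2.07 and -1.61 with DMSO and -2.19, -1.48 and -1.81 with 22d. The groups overlapped, and within each group the libraries differed by more than the groups did. The group means were -1.82 ± 0.24 and -1.83 ± 0.36 (SD, n = 3 each), a difference of -0.0033 (exact two-sided permutation p = 1). Leaving out 1 library moved this difference between -0.18 and 0.18. With 3 libraries a group, the smallest p this exact test can give is 0.1.

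TRAP1, the mitochondrial HSP90 (chromosome 16, 3651639 to 3717597, minus strand), fell to 43.8% of its DMSO mean; the difference from the cytosolic genes was not tested. It stood at 7970, 7872 and 6982 normalized counts in DMSO replicates 1 to 3, and at 3133, 3430 and 3440 in 22d replicates 1 to 3. The replicates were tight in each group and lay far apart between groups. The log2 fold change was -1.19, with an SE of 0.10 and a limma adjusted p of 9.3e-07. DNASE1, which overlaps a TRAP1 exon on the opposite strand, averaged 148 normalized counts with DMSO and 219 with 22d. HSP90B1, the HSP90 of the endoplasmic reticulum, stood at 5340, 3616 and 4852 normalized counts in DMSO replicates 1 to 3, and at 3469, 5050 and 3680 in 22d replicates 1 to 3. Its groups overlapped, and it did not pass the test (log2 fold change -0.18, SE 0.16, limma adjusted p = 0.36). The sign turned, to 0.13 with quantile normalization and 0.04 with scaling by library totals, on the log2 scale. As for HSP90AA1, replicate 2 was the lowest library with DMSO and the highest with 22d.

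**Figure D2:**
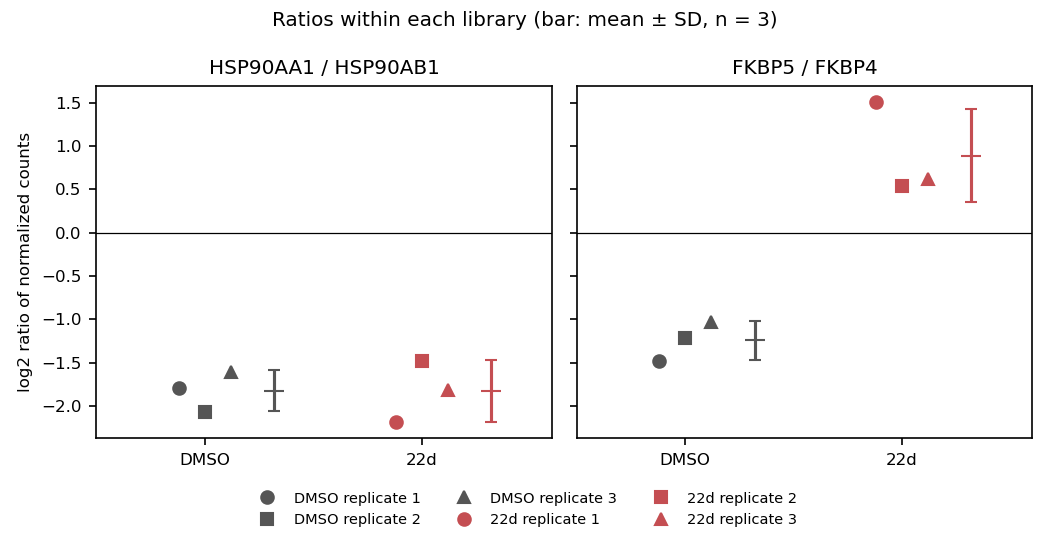
The log2 ratio of normalized counts within each library (vertical axis) for HSP90AA1 over HSP90AB1 (left) and FKBP5 over FKBP4 (right), with DMSO in grey, 22d in red, and bars for mean ± SD. The left panel shows overlapping groups, and the right panel shows all DMSO libraries below 0 and all 22d libraries above 0.

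FKBP4 fell the most of the 10 genes. It encodes the immunophilin FKBP52, a peptidyl-prolyl isomerase that binds HSP90 in steroid receptor complexes and favours receptor activity, and it lies on chromosome 12 from 2794953 to 2805423 (plus strand). Counts of 7250, 5649 and 4883 (normalized) were found in DMSO replicates 1 to 3, and 1028, 1482 and 1239 in 22d replicates 1 to 3. The highest 22d library was far below the lowest DMSO library. The mean went from 5927 ± 1208 to 1250 ± 227 (SD, n = 3 each), which is 21.1% of the DMSO level. Its log2 fold change was -2.24, with an SE of 0.16 and a limma adjusted p of 2.0e-07, and 0.910% of tested genes had a lower one. Antisense genes, ITFG2-AS1 among them, overlap FKBP4 exons; they were not analysed here, and without a stated strand setting their reads cannot be told apart from those of FKBP4.

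FKBP5, its paralogue, encodes FKBP51, which binds the same HSP90 complexes and restrains the glucocorticoid receptor; it is a known target gene of that receptor (chromosome 6, 35573585 to 35728583, minus strand). It stood at 2600, 2432 and 2389 normalized counts in DMSO replicates 1 to 3, and at 2920, 2155 and 1897 in 22d replicates 1 to 3. The 22d libraries spanned the DMSO range on both sides, with replicate 1 above it and the other two below. The mean was 2474 ± 112 in the DMSO group against 2324 ± 532 in the 22d group (SD, n = 3 each), and the log2 fold change was -0.11, with an SE of 0.14 and a limma adjusted p of 0.51. Its 95% interval ran from -0.42 to 0.19, so values of either sign lie within it. Without 22d replicate 1 the value was -0.29 and passed the test (limma adjusted p = 0.032). Scaling by library totals turned it to 0.11.

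The ratio of FKBP5 to FKBP4 thus changed sides. Its log2 was -1.48, -1.22 and -1.03 with DMSO and 1.51, 0.54 and 0.61 with 22d, so that FKBP4 had the higher count in every DMSO library and FKBP5 in every 22d library. The geometric mean ratio went from 0.423 to 1.85. The difference of the log2 means, -1.24 ± 0.23 and 0.89 ± 0.54 (SD, n = 3 each), was 2.13 (exact two-sided permutation p = 0.1, the smallest possible). The lowest value without 1 library was 1.82, without 22d replicate 1. These are counts, and FKBP5 has longer exons, so the ratio is a comparison between groups and not of the levels of the 2 transcripts.

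AHSA1, which encodes AHA1, the strongest known activator of the HSP90 ATPase (chromosome 14, 77457870 to 77469474, plus strand), had the second largest fall. It stood at 3981, 3308 and 3378 normalized counts in DMSO replicates 1 to 3, and at 1181, 1440 and 1237 in 22d replicates 1 to 3. No library with 22d came near a DMSO library. The mean went from 3555 ± 370 to 1286 ± 136 (SD, n = 3 each). The log2 fold change was -1.47, with an SE of 0.12 and a limma adjusted p of 5.1e-07. AHSA2, a related gene copy, rose from a mean of 915 ± 58.3 to 1577 ± 82.7 normalized counts (SD over 3 libraries; log2 fold change 0.79, limma adjusted p = 4.5e-05).

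STIP1 encodes HOP, which bridges HSP70 and HSP90 so that clients can pass from one to the other (chromosome 11, 64185272 to 64204543, plus strand). It stood at 9230, 8870 and 7197 normalized counts in DMSO replicates 1 to 3, and at 3379, 3590 and 3538 in 22d replicates 1 to 3. The 22d libraries were nearly equal, and the DMSO libraries were all well above them. On the log2 scale the fold change was -1.26, with an SE of 0.11 and a limma adjusted p of 1.3e-06. The 22d mean was 41.5% of the DMSO mean.

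PTGES3 encodes p23, which holds HSP90 in its closed state late in the cycle (chromosome 12, 56663341 to 56688408, minus strand). Normalized counts were 8350, 7680 and 7802 in DMSO replicates 1 to 3, and 3711, 4093 and 3614 in 22d replicates 1 to 3. The groups stood apart with a small spread in each. The log2 fold change was -1.06, with an SE of 0.10 and a limma adjusted p of 1.9e-06. PTGES3 was the closest of the 5 genes to the 2-fold mark, and under scaling by library totals it and TRAP1 did not reach it, which left 3 genes. Under that scaling 20.8% of tested genes were lower and 6.49% lower by at least 2-fold. Quantile normalization left FKBP4 and AHSA1, against 9.79% of tested genes lower by at least 2-fold.

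CDC37 encodes the cochaperone that brings protein kinases to HSP90 (chromosome 19, 10391134 to 10420121, minus strand). It stood at 10088, 10439 and 8564 normalized counts in DMSO replicates 1 to 3, and at 4870, 6251 and 5927 in 22d replicates 1 to 3. All 22d libraries were below all DMSO libraries. This gave a log2 fold change of -0.77, with an SE of 0.12 and a limma adjusted p of 0.00012, and -0.46 with quantile normalization, still called.

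HSF1 (chromosome 8, 144291591 to 144314722, plus strand) did not pass the test. It stood at 4139, 5529 and 3855 normalized counts in DMSO replicates 1 to 3, and at 4280, 4072 and 4673 in 22d replicates 1 to 3. The 22d libraries lay inside the DMSO range, in which replicate 2 stood highest. The mean was 4508 ± 896 in the DMSO group against 4342 ± 305 in the 22d group (SD, n = 3 each). The log2 fold change was -0.04, with an SE of 0.13 and a limma adjusted p of 0.82, and its 95% interval ran from -0.32 to 0.25. The sign of this value turned without DMSO replicate 2, without 22d replicate 2, and under both other scalings. DGAT1 overlaps an HSF1 exon on the opposite strand and averaged 2996 normalized counts with DMSO and 2807 with 22d.

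**Figure D3:**
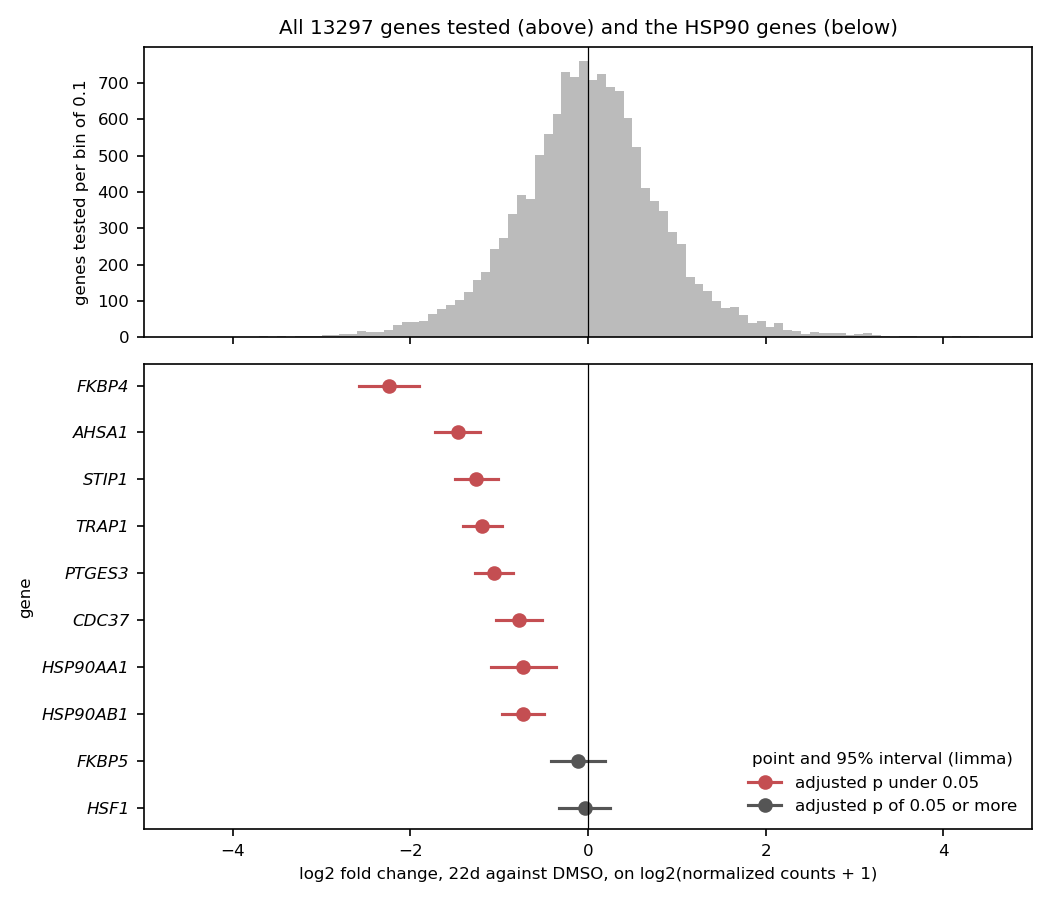
Log2 fold changes, 22d against DMSO (horizontal axis), as a histogram of all 13297 tested genes in bins of 0.1 (top) and for each of the 10 genes with its 95% limma interval (bottom; red for adjusted p under 0.05, grey otherwise). FKBP4 at -2.24 lies furthest to the left, and the intervals of FKBP5 and HSF1 span 0.

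The libraries also varied within the groups. Of the 8 genes that fell, 6 were lowest in 22d replicate 1 among the 22d libraries, 6 were highest there in 22d replicate 2, and 6 were highest in DMSO replicate 1 among the DMSO libraries. The same was not counted over all tested genes, so these counts do not set the HSP90 genes apart. Leaving out any 1 library kept these 8 called, with the largest limma adjusted p at 0.014 for HSP90AA1. FKBP4 ranged from -2.37 to -2.09 on the log2 scale over these fits. The authors' deposited table has 8 of the 10 genes lower at an adjusted p under 0.05, against 23.6% of the genes with a value there, with log2 fold changes from -2.20 for FKBP4 to -0.71 for HSP90AA1 among them.

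Per length, HSP90AB1 was the most abundant of these transcripts in both groups. Normalized counts were divided by the exon length of coding transcripts in GENCODE 29, which need not be the authors' annotation. With DMSO the mean counts per kilobase ran from 11658 ± 947 for HSP90AB1 over 6030 ± 620 for CDC37 and 3825 ± 172 for PTGES3 to 233 ± 10.5 for FKBP5 (SD, n = 3 each). These genes did not overlap with their neighbours in the order. Between PTGES3 and FKBP5 stood STIP1 at 2847, TRAP1 at 2586, HSP90AA1 at 2467, HSF1 at 2019, AHSA1 at 1795 and FKBP4 at 1567 counts per kilobase, and each of these up to AHSA1 overlapped the next in its range over libraries. With 22d HSP90AB1, at 7038 ± 544, and CDC37, at 3534 ± 449, still led (SD, n = 3 each). HSF1, at 1944 ± 137, followed, overlapping PTGES3 at 1832 ± 122 (SD, n = 3 each). Below these stood HSP90AA1 at 1494, STIP1 at 1182, TRAP1 at 1133 and AHSA1 at 649 counts per kilobase. Among these neighbours PTGES3 overlapped HSP90AA1 and STIP1 overlapped TRAP1. FKBP4, at 330 ± 60.0, came down towards FKBP5, at 219 ± 50.1 (SD, n = 3 each). The 2 overlapped only through 22d replicate 1, at 272 for FKBP4 and 275 for FKBP5. FKBP4 was the higher in 22d replicates 2 and 3. The place of HSF1 rests on the length used: with all annotated exons it was 9 in order with DMSO and 5 with 22d.

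**Figure D4:**
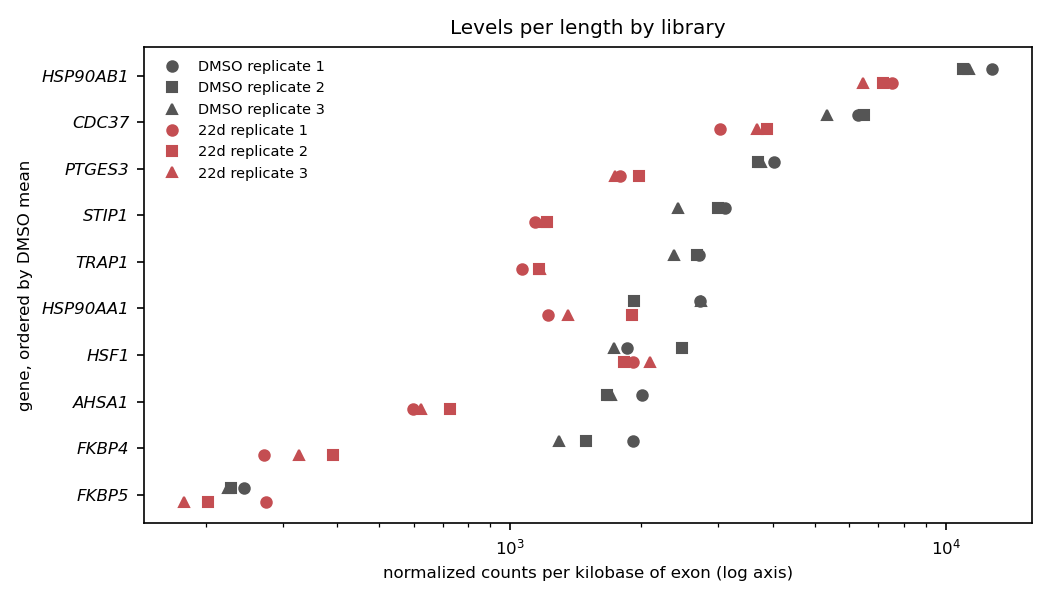
Normalized counts per kilobase of exon (horizontal log axis) in each library, DMSO in grey and 22d in red, for the 10 genes in order of their DMSO mean. HSP90AB1 lies furthest right in both groups, and FKBP4 moves left towards FKBP5, with ranges that meet only through 22d replicate 1.

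Of 31 further HSP90 cochaperones and partners, 29 were tested, of which 10 fell, 5 rose and 14 did not pass the test, with a median log2 fold change of -0.14. Of all tested genes 29.6% were lower, which is near the share in this list, and 28.5% higher. NUDC, a CS-domain cochaperone that resembles p23, fell from a mean of 5286 ± 424 to 1647 ± 180 normalized counts (SD over 3 libraries; log2 fold change -1.68, limma adjusted p = 1.6e-07). PPP5C, the phosphatase PP5 that is recruited by HSP90, fell from 3502 ± 234 to 1188 ± 149 (SD, n = 3 each; log2 fold change -1.56, limma adjusted p = 3.0e-07). FNIP1, a partner of folliculin that slows the HSP90 ATPase, rose from 393 ± 70.7 to 929 ± 186 (SD, n = 3 each; log2 fold change 1.24, limma adjusted p = 3.8e-05). With scaling by library totals the list split into 9 lower and 10 higher, where 20.8% of all tested genes were lower and 39.7% higher.

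The R2TP and TTT complexes work with HSP90 to assemble large kinases and polymerases. Their subunits and the partners WDR92, URI1 and UXT made a list of 10 tested genes. Of these 7 fell, 1 rose and 2 did not pass, with a median log2 fold change of -0.78. Of all tested genes 29.6% were lower and 28.5% higher. Among the partners WDR92 (log2 fold change -0.86) and UXT (-0.51) fell, and URI1 (-0.16) did not pass. TELO2, the TTT subunit that binds R2TP, fell from a mean of 6059 ± 942 to 1631 ± 427 normalized counts (SD over 3 libraries; log2 fold change -1.92, limma adjusted p = 1.5e-06). RUVBL2, an ATPase of R2TP, went from 9930 ± 1133 to 3342 ± 523 (SD, n = 3 each; log2 fold change -1.58, limma adjusted p = 7.3e-07). RPAP3, the R2TP subunit that holds the HSP90 tail, was the 1 gene that rose, from 197, 182 and 252 to 330, 321 and 276 normalized counts in replicates 1 to 3 (log2 fold change 0.56, limma adjusted p = 0.0086).

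Of 22 known HSF1 targets outside the 10 genes, 20 were tested, of which 15 fell, 1 rose and 4 did not pass, against 29.6% of all tested genes lower and 28.5% higher, with a median log2 fold change of -0.73. HSPA8, the constitutive cytosolic HSP70 that binds HOP, stood at 37386, 25017 and 23914 normalized counts in DMSO replicates 1 to 3, and at 10676, 8497 and 7382 in 22d replicates 1 to 3. All its 22d libraries were below all its DMSO libraries (log2 fold change -1.69, SE 0.17, limma adjusted p = 3.6e-06). HSPE1, the mitochondrial cochaperonin HSP10, fell from 254 ± 34.4 to 80.2 ± 18.2 (SD, n = 3 each; log2 fold change -1.67, limma adjusted p = 1.5e-05). HSPD1, on the same list, averaged 10253 normalized counts with DMSO and 6366 with 22d (log2 fold change -0.69, limma adjusted p = 0.00024). HSPE1 had far lower counts than HSPD1, and how well its reads could be placed was not examined. DNAJB1, an HSP40, changed by -0.76 on the log2 scale (limma adjusted p = 0.00035) and HSPH1, an HSP110, by -0.96 (limma adjusted p = 0.00012). HSPA1A, an inducible HSP70, changed by -1.66 on the log2 scale (limma adjusted p = 4.5e-05), but its reads are hard to place because HSPA1B is nearly identical.

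Of the 12 genes of the HSF family and its regulators, 10 were tested, of which 5 rose, 2 fell and 3 did not pass, against 28.5% of all tested genes higher and 29.6% lower, with a median log2 fold change of 0.22. HSF4, a family member best known from the lens, rose from a mean of 112 ± 40.0 to 460 ± 32.1 normalized counts (SD over 3 libraries; log2 fold change 2.10, limma adjusted p = 8.6e-06). SIRT1, a deacetylase that prolongs HSF1 binding to DNA, rose from 524 ± 35.2 to 803 ± 159 (SD, n = 3 each; log2 fold change 0.60, limma adjusted p = 0.0029). HSBP1, a small protein that binds HSF1 trimers, fell by 0.55 on the log2 scale (limma adjusted p = 0.0010), and TFIP11, a splicing factor on the list, fell by 0.58 on that scale (limma adjusted p = 0.00031). HSF2 averaged 180 ± 33.7 normalized counts with DMSO against 194 ± 62.3 with 22d (SD over 3 libraries; log2 fold change 0.08, limma adjusted p = 0.78).

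The glucocorticoid receptor is the classic client whose activity FKBP4 and FKBP5 tune. Its gene NR3C1 stood at 1460, 1196 and 1413 normalized counts in DMSO replicates 1 to 3, and at 1638, 1562 and 1494 in 22d replicates 1 to 3. The 22d libraries all lay above the DMSO libraries, by little, and the gene did not pass the test (log2 fold change 0.21, SE 0.11, limma adjusted p = 0.12). It passed with scaling by library totals (log2 fold change 0.43, limma adjusted p = 0.0077) and with quantile normalization (0.37, limma adjusted p = 0.013). Of the receptor and its known targets, 13 genes in all, 4 rose, 2 fell and 7 did not pass, with a median log2 fold change of 0.21. The share higher is near the 28.5% of all tested genes, and the share lower is below the 29.6% of all tested genes. The 7 that did not pass were NR3C1, PER1, SGK1, DUSP1, CEBPD, IRS2 and BIRC3. TSC22D3, which encodes the glucocorticoid-induced leucine zipper GILZ, stood at 142, 177 and 154 normalized counts in DMSO replicates 1 to 3, and at 2425, 1010 and 1110 in 22d replicates 1 to 3. It rose in all 22d libraries, most in replicate 1 (log2 fold change 3.14, SE 0.25, limma adjusted p = 6.1e-07). ANXA1, which encodes annexin A1, rose from 101 ± 24.6 to 314 ± 83.9 (SD, n = 3 each; log2 fold change 1.61, limma adjusted p = 3.8e-05). Of the 2 that fell, ZBTB16 went from a mean of 150 with DMSO to 47.0 with 22d (log2 fold change -1.63, limma adjusted p = 4.8e-05). NFKBIA, the inhibitor of NF-kappa-B, was barely called (log2 fold change -0.56, limma adjusted p = 0.048) and lost its call under several settings. It did so without the filter (limma adjusted p = 0.052), with quantile normalization (limma adjusted p = 0.19), with library totals (limma adjusted p = 0.18) and with the robust fit (limma adjusted p = 0.13). The same held by edgeR (adjusted p = 0.053), by DESeq2 (adjusted p = 0.17), and without DMSO replicate 1 or 2 or 22d replicate 1 or 3 (limma adjusted p = 0.086 to 0.21). With scaling by library totals the list split into 1 lower and 6 higher, where 20.8% of all tested genes were lower and 39.7% higher. With quantile normalization it split into 1 lower and 4 higher, where the shares of all tested genes were 27.4% and 29.7%.

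Of 40 genes of known client kinases and receptors 37 were tested, of which 14 fell, 11 rose and 12 did not pass, against 29.6% of all tested genes lower and 28.5% higher, with a median log2 fold change of 0.03. With scaling by library totals 12 fell and 18 rose, where 20.8% of all tested genes were lower and 39.7% higher. With quantile normalization 12 fell and 17 rose, where the shares were 27.4% and 29.7%. FLT3 stood at 4916, 4707 and 5404 normalized counts in DMSO replicates 1 to 3, and at 7356, 6821 and 5931 in 22d replicates 1 to 3. All 22d libraries were above the DMSO libraries (log2 fold change 0.42, SE 0.11, limma adjusted p = 0.0055). AXL, a receptor tyrosine kinase, rose from 180, 158 and 151 to 1648, 1313 and 1674 normalized counts in replicates 1 to 3 (log2 fold change 3.23, limma adjusted p = 1.1e-08), and JAK2, a cytokine receptor kinase, from 400 ± 20.5 to 836 ± 63.1 (SD, n = 3 each; log2 fold change 1.06, limma adjusted p = 8.6e-06). TERT, the catalytic subunit of telomerase, fell from 412 ± 45.7 to 45.5 ± 15.1 (SD, n = 3 each; log2 fold change -3.20, limma adjusted p = 2.3e-07). AURKB, a mitotic kinase, fell from 2375 ± 348 to 459 ± 143 (SD, n = 3 each; log2 fold change -2.41, limma adjusted p = 6.6e-07).

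**Figure D5:**
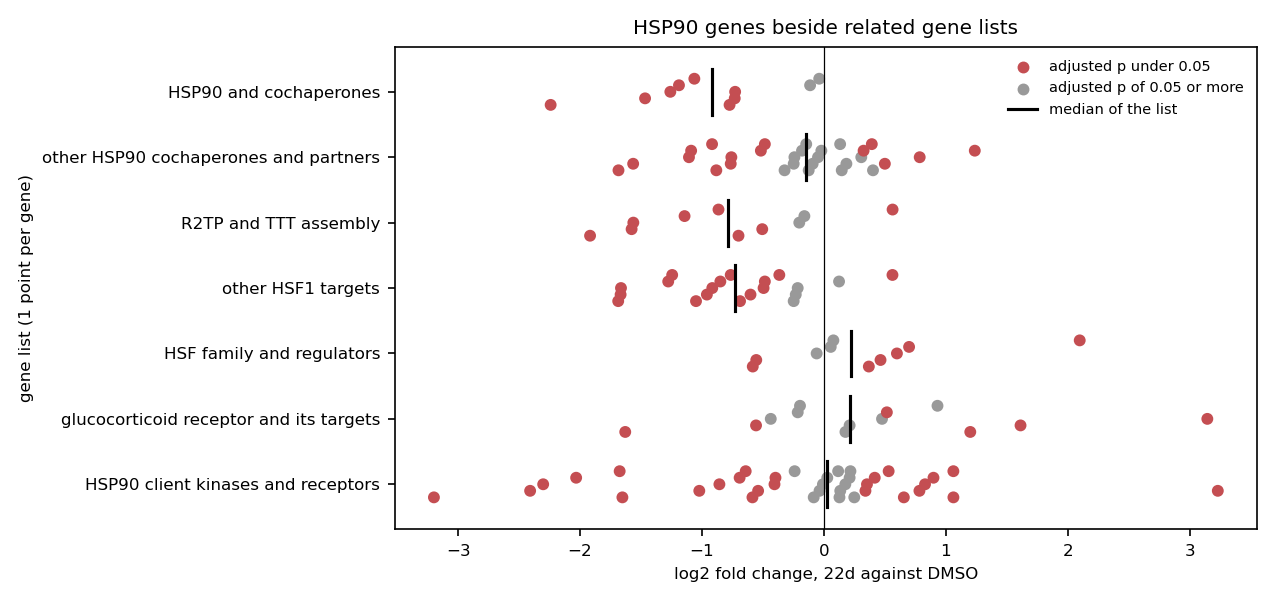
Log2 fold changes, 22d against DMSO (horizontal axis), 1 point per tested gene, for the 10 HSP90 genes and the 6 related lists (rows), with red for an adjusted p under 0.05 and a black bar at the list median. The medians of the HSP90 genes, R2TP and TTT with their partners, and HSF1 targets lie at -0.92, -0.78 and -0.73, and those of the other 4 lists between -0.14 and 0.22.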

How the data were processed

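RNA of MV4-11 cells was sequenced in 6 libraries, 3 with DMSO and 3 with 22d, from 1 microgram of total RNA each with a NEBNext Ultra RNA kit, per the labels' protocols. The submitters' processing notes name STAR, HTSeq, DESeq2, FastQC and cutadapt, and build hg38; versions, annotation release, filters and strand setting are not given in the sources used here. Per the file headers, the deposited table gives a normalized count signal per library, the authors' log2 fold change with its error, a test score, and a p-value with its adjusted form. The deposited signal is a read count over 1 size factor per library: multiplied back, 100% of values were whole to within 0.001 reads, at 19995430 to 23749257 reads per library. Columns were matched to libraries by arm and number.

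limma-trend was fitted to log2(value + 1), with group as the only term, on 13297 genes with a mean of at least 10, with Benjamini-Hochberg adjustment over all of them; fold changes are on that scale, on which the added 1 understates low genes. On the recovered reads, edgeR's quasi-likelihood test called 7723 genes and DESeq2 7537, against 7718 by limma. The fit was also run on simulated data in which only a small part of the genes changed. That run does not cover changes as broad as those in these data. Ratios between genes were compared by an exact permutation test. Alternatives covered pseudocount, filter, scaling, test, block and each library left out; those for the lists and for other named genes were added after seeing the data.

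The 10 genes and the lists were chosen with earlier results of these data known. All 10 are named, with 8 further fixed genes and, per list, up to 2 called genes with the largest rise and 2 with the largest fall, of those averaging 100 or more. ZBTB16 is named as well, although it averaged less over the 6 libraries. Likeness to FKBP4 is the Euclidean distance between centred log2 values. Tools were R 4.3.3, limma 3.58.1, edgeR 4.0.16, DESeq2 1.42.0, Python 3.11.15 and matplotlib 3.10.9. Promoters are from RefSeq. Some named results are not reported here.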

Additional observations from a re-analysis of the deposited data

How the results depend on the processing

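The 8 calls among the 10 HSP90 genes held under 15 of 16 alternatives. Quantile normalization kept 7 (HSP90AA1 at -0.42, limma adjusted p = 0.079), and leaving out 22d replicate 1 added a call, for 9 (FKBP5 at -0.29, limma adjusted p = 0.032). With 1 library left out, between 6693 and 7445 of all genes were called, and between 8 and 9 of the 10. The difference of the log2 FKBP5 to FKBP4 ratio then lay between 1.82 and 2.30, and that of HSP90AA1 to HSP90AB1 between -0.18 and 0.18: it turned sign without DMSO replicate 1 (0.015), DMSO replicate 3 (0.10) or 22d replicate 1 (0.18). FKBP5 turned to 0.14 with quantile normalization, 0.11 with library totals and 0.021 without 22d replicate 3. HSF1 turned to 0.27 with quantile normalization (limma adjusted p = 0.052), 0.18 with library totals, 0.12 without DMSO replicate 2 and 0.0067 without 22d replicate 2, with a range of -0.14 to 0.12 over the fits without 1 library. HSP90B1 turned to 0.13 and 0.041 with these scalings, and HSF2 to -0.080 with quantile normalization, -0.080 without DMSO replicate 2 and -0.17 without 22d replicate 1, with a range of -0.17 to 0.25. The cause was not tested. Library totals moved the median of all genes to 0.22 and the share of calls that are higher from 49.0% to 65.6%.

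A replicate block gave 7419 genes and the same 8 of 10. Deviations of same-numbered libraries correlated at -0.03, -0.02 and -0.10, and no library correlated best with its own number in the other group. With so few libraries these correlations cannot tell whether any of them shared a culture or a batch. With 3 libraries a group, exact tests of single values cannot pass 0.05. Each of the 10 genes had at least 1052 reads in every library.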

Other observations

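Of the 10269 genes that averaged 100 or more normalized counts, the genes whose centred log2 values lay closest to those of FKBP4 over the 6 libraries were POLA2, a subunit of the DNA polymerase alpha primase complex, at a Euclidean distance of 0.195, GINS3, a subunit of the replicative helicase, at 0.205, and MT1X, a metallothionein gene, at 0.206. POLA2 stood at 2243, 1806 and 1664 normalized counts in DMSO replicates 1 to 3, and at 364, 537 and 426 in 22d replicates 1 to 3. Like FKBP4, it was highest in DMSO replicate 1 and lowest in 22d replicate 1. The log2 fold changes of these genes were -2.11, -2.25 and -2.17.

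Over all tested genes with a RefSeq promoter window, 47 had the heat shock element of 3 units. Of these, 17 were called lower (36.2%) and 11 higher (23.4%). Of the 9661 genes with a window and no match, 30.9% were called lower and 27.8% higher. The difference between these shares was not tested.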
